A study of Homo sapiens with 3 samples.

Results

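The 10 genes described here, MALAT1, NEAT1, LINC00657, KCNQ1OT1, TUG1, GAS5, SNHG1, MEG3, OIP5-AS1 and CRNDE, encode abundant long noncoding RNAs, and their C-to-U edited clusters were read out in HEK293T cells that expressed the splicing regulator RBFOX2 fused to the cytidine deaminase APOBEC1. A cluster was taken as a member when its deposited name carried exactly 1 of these symbols before an exon or intron number, where LINC00657 is the older symbol of NORAD. Of 40843 clusters over 3 replicates, 74 met this rule, which are 21 of 14295, 34 of 15181 and 19 of 11367 clusters in replicates 1, 2 and 3. They lay in 8 of the 10 genes, 6 of which had clusters in every replicate. KCNQ1OT1 and MEG3 had none, which says only that no region of them passed the authors' threshold, since unedited RNA leaves no trace in a list of clusters.

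In this assay, STAMP, the deaminase converts C to U near the places where the fused protein meets an RNA, and conversions are read from RNA sequencing. All 3 replicates belong to a single group of HEK293T cells, a line derived from human embryonic kidney, here its lenti-X form that the labels also call HEK293XT, of wild-type genotype apart from the introduced construct, which was transiently transfected and induced with doxycycline for 72 h. The labels also describe stable lines. They name polyA RNA but also stranded mRNA or total RNA, and which applies is not settled. Libraries without the fusion or with the deaminase alone were not analysed here, so editing that does not depend on RBFOX2 cannot be told apart from editing that does. The replicates are biological ones by the study's own account, while the labels do not say how the cultures were separated. Of genes that HEK293 cells are known to express, NEFM held 3, 2 and 3 clusters in replicates 1, 2 and 3, VIM held 1 in replicate 3, and KRT8 and KRT18 held none. None of PTPRC, ALB, HBB and COL1A1, markers of other cell types, held a cluster.

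Long noncoding RNAs act from where they reside. MALAT1 gathers in nuclear speckles, NEAT1 builds paraspeckles, and KCNQ1OT1 and MEG3 are imprinted RNAs that act at chromatin, whereas LINC00657 and OIP5-AS1 are mostly cytoplasmic, and GAS5 and SNHG1 are spliced hosts of small nucleolar RNAs whose mature exons leave the nucleus. RBFOX2 binds GCAUG motifs and is best known for its nuclear role in splicing, so nuclear RNAs (MALAT1, NEAT1, KCNQ1OT1 and MEG3) were contrasted with cytoplasmic RNAs (LINC00657, GAS5, SNHG1 and OIP5-AS1), and TUG1 and CRNDE, which occur in both compartments, were kept apart. The classes are general knowledge about these RNAs and were not measured in these cells. As KCNQ1OT1 and MEG3 held no cluster, the nuclear class rests on MALAT1 and NEAT1.

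LINC00657 had the most regular set of clusters among the members. It held 8 clusters in each of the 3 replicates, and 59 of 6999, 82 of 7188 and 38 of 6037 genes with clusters had more in replicates 1, 2 and 3. At least 8 clusters in every replicate were found in 23 of 9904 genes with a cluster (0.232%). MALAT1 held 3, 4 and 5 clusters, NEAT1 2, 6 and 1, GAS5 1, 5 and 3, SNHG1 1, 2 and 1, and OIP5-AS1 2, 4 and 1. TUG1 held 1 and 4 clusters and CRNDE 3 and 1 in replicates 1 and 2, and neither had any in replicate 3. Clusters in all 3 replicates were seen in 6 of the 8 members with a cluster, beside 37.9% of all genes with a cluster.

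The edit fraction, which is the number of edited bases over all C bases covered by reads, was lowest in GAS5 and highest in MALAT1, and the replicate values of these genes lie far apart. Pooled over its clusters, MALAT1 reached 3.30%, 3.93% and 4.87% in replicates 1, 2 and 3, from 11, 12 and 19 edited bases. NEAT1 reached 1.89%, 1.85% and 6.45%, from 4, 18 and 2 edited bases, and its high value in replicate 3 comes from 1 cluster with 31 covered C bases and a Wilson 95% interval of 1.79% to 20.7%. Editing of LINC00657 was measured more tightly, at 1.31%, 1.33% and 2.21%, from 58, 61 and 41 edited bases. OIP5-AS1 gave 2.47%, 1.68% and 4.62%, from 7, 13 and 3 edited bases. The host RNAs were lowest, with 1.15%, 0.643% and 0.819% in SNHG1 and 0.357%, 0.486% and 0.463% in GAS5, where 10, 62 and 55 bases were edited of 2798, 12763 and 11877 covered C bases. TUG1, a regulator of transcription and translation found in both compartments, gave 2.22% and 1.33% in replicates 1 and 2, and CRNDE, an RNA raised in many tumours, gave 2.12% and 1.90%. In order of their means, MALAT1 (4.04% ± 0.789, SD, n = 3), NEAT1 (3.40% ± 2.65), OIP5-AS1 (2.92% ± 1.52) and LINC00657 (1.62% ± 0.517) overlap with their neighbours in the order. The replicate values of LINC00657 lie above those of SNHG1 (0.870% ± 0.257), and those of SNHG1 above those of GAS5 (0.435% ± 0.0685). Intervals cover counting error only, because several C bases share a read and PCR copies carry no molecular identifiers.

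**Figure D1:**
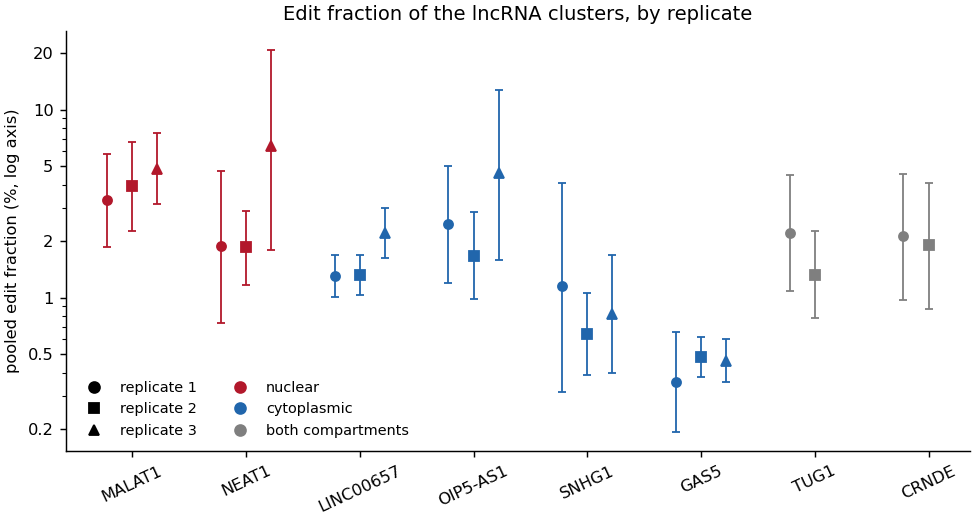
Pooled edit fraction in percent (log axis) of each long noncoding RNA with a cluster, with 1 symbol per replicate and bars for the Wilson 95% interval; colours give the compartment class. GAS5 lies between 0.357% and 0.486% with narrow bars, MALAT1 between 3.30% and 4.87% with wide ones.

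Taken as a set, the members showed no single direction against other clusters in pooled edit fraction, and GAS5 decided this. Their pooled edit fraction was 1.19%, 0.868% and 0.843% in replicates 1, 2 and 3, beside 0.939%, 0.934% and 0.997% in all other clusters, higher in 1 replicate and lower in 2 (difference of 0.010 percentage points ± 0.213, SD, n = 3; exact two-sided sign-flip permutation p = 1). GAS5 supplied 27438 of the members' 46942 covered C bases, and without it the other members gave 1.58%, 1.34% and 2.25%, higher than other clusters in 3 of 3 replicates (difference of 0.767 percentage points ± 0.439, SD, n = 3; exact permutation p = 0.25, the smallest that 3 replicates allow). Leaving out GAS5 took deeply covered clusters from the members only, so this comparison was not made at like coverage. Members held 0.104%, 0.179% and 0.165% of all edited bases in 0.147%, 0.224% and 0.167% of all clusters. A score of at least 0.99, the authors' measure of confidence, was given to 51 of 74 members, beside 60.6% of all clusters. The C content of the member clusters was lower, with 16.3%, 18.2% and 14.7% of their bases being C against 19.2%, 19.7% and 20.01% in other clusters. It was lower in 3 of 3 replicates, with and without GAS5 (exact sign-flip permutation p = 0.25 for both). Within the set, C content ran from 11.9% in CRNDE and 14.2% in MALAT1 to 22.8% in TUG1 and 23.0% in SNHG1, each over all its clusters. Member clusters were on average 57.1, 56.9 and 56.1 bases long, beside 53.5, 53.0 and 52.7 bases for the others. LINC00657, with 24 of the 74 clusters, averaged 68.1 bases over all its clusters. The other members ran from 41.25 bases in SNHG1 to 57 in TUG1. Lengths of the set without LINC00657 were not compared. The share of reads with an edit was 2.81%, 2.05% and 2.22% in members and 3.88%, 3.88% and 4.21% in others, lower in 3 of 3 replicates (exact sign-flip permutation p = 0.25). This direction rests on GAS5, which held 8011 of the members' 11165 reads. Without it the share was 4.32%, 4.82% and 4.95%, higher than in others in 3 of 3 replicates (exact permutation p = 0.25). These shares were not compared at like coverage either.

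Nuclear RNAs had the higher edit fraction in every replicate. Their pooled values were 2.75%, 2.35% and 4.99% in replicates 1, 2 and 3, against 1.00%, 0.737% and 0.724% in cytoplasmic RNAs, and the groups of values do not overlap. The difference within a replicate averaged 2.54 percentage points ± 1.49 (SD, n = 3; exact two-sided sign-flip permutation p = 0.25, the smallest the design allows), and it was 1.68 percentage points without replicate 3. Without GAS5, which supplied 2798 of 7682, 12763 of 20475 and 11877 of 14650 covered C bases of its class, it was 1.91 percentage points. The share of edited reads ran the same way, at 7.95%, 6.70% and 14.3% in nuclear and 2.29%, 1.73% and 1.93% in cytoplasmic clusters.

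Coverage moved with this contrast. The median number of covered C bases per C base, the read coverage of the bases that can be edited, was 12.5, 13.0 and 8.0 in nuclear and 35.1, 35.4 and 35.7 in cytoplasmic clusters, and edit fraction was lower at higher coverage among all clusters. FLARE itself set its background rate apart for windows under 10, 20, 30, 40 and 50 reads, so a thinly covered window had to show a higher edit fraction to be listed, and compartment and threshold cannot be told apart in the pooled contrast. Among clusters outside the list in replicate 1, the median edit fraction was 4.88% at a coverage under 10, 2.30% at 10 to 20 and 0.408% at 500 and above. Most nuclear clusters were thinly covered, whereas the GAS5 clusters had mean read depths from 626 to 929. When both classes were limited to a coverage under 20, the direction of the difference depended on single clusters of replicate 3. Nuclear clusters then gave 3.07%, 2.55% and 4.99%, from 4, 8 and 6 clusters, and cytoplasmic clusters 2.47%, 2.35% and 6.51%, from 4, 6 and 3 clusters. The mean difference was -0.243 percentage points ± 1.12 (SD, n = 3; exact sign-flip permutation p = 1), positive in replicates 1 and 2 and negative in replicate 3. In replicate 3 the LINC00657 cluster at chr20:34636170-34636274 gave 14 of 22 cytoplasmic edited bases and the MALAT1 cluster at chr11:65271384-65271503 gave 10 of 21 nuclear ones, each on 2 reads. The mean difference was 0.367 percentage points without the former, then positive in 3 of 3 replicates, -0.734 without the latter and -0.124 without both. All other clusters under this coverage gave 2.99%, 2.93% and 2.95%.

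**Figure D2:**
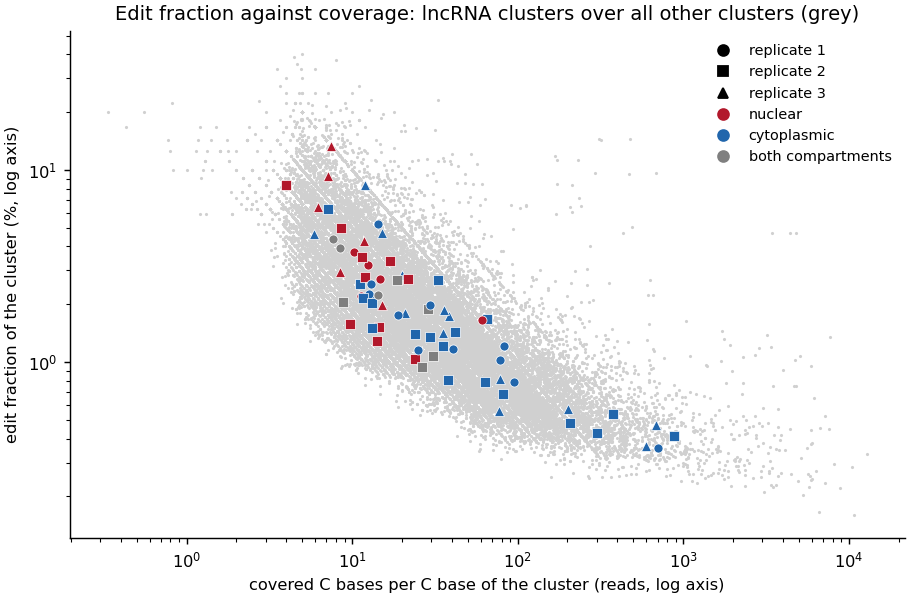
Edit fraction of each cluster in percent against the covered C bases per C base (both log axes), for clusters outside the list (grey points, 40769) and members (coloured by compartment class, with 1 symbol per replicate). Nuclear members sit at the thinly covered end, with coverages from 4.0 to 60.5, cytoplasmic members between 5.91 and 877, and both follow the grey band downward.

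To compare genes at like coverage, each edit fraction was divided by the median of clusters outside the list in the same replicate and coverage class. The number and share of C bases in a cluster, which differed between genes, were not matched. On this scale 1 is a typical cluster. Over all members, GAS5 included, the median ratios were 1.12, 0.953 and 1.13 in replicates 1, 2 and 3. Of the 74 member clusters 39 lay above 1, beside 49.8% of all clusters. MALAT1 had median ratios of 1.39, 1.56 and 1.85 in replicates 1, 2 and 3, and 9 of its 12 clusters lay above 1, beside 49.8% of all clusters. LINC00657 gave 1.21, 1.08 and 1.30, with 17 of 24 clusters above 1. MALAT1 exceeded LINC00657, the next gene in order, without overlap between replicates. NEAT1 varied around 1, with 1.42, 0.674 and 1.29. GAS5, which had the lowest edit fraction, was close to 1 at its coverage, with 0.876, 0.902 and 1.09, and SNHG1 gave 0.724, 1.08 and 0.946. OIP5-AS1 gave 1.05, 0.899 and 0.923, with 1 of 7 clusters above 1. Nuclear clusters had median ratios of 1.39, 1.12 and 1.57 and cytoplasmic clusters 1.06, 0.927 and 1.10, a difference of 0.334 ± 0.138 (SD, n = 3; exact sign-flip permutation p = 0.25). Without MALAT1 the difference was 0.0990, with an exact permutation p = 0.75, and taking the mean of cluster ratios in place of the median gave 0.152. These p-values do not show that the compartments are alike.

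LINC00657 is an unspliced RNA, and all of its clusters were annotated to a single exon on the minus strand of chromosome 20, spread over 4560 bases of the hg19 build (chr20:34633560-34638119). Divided at the middle of this stretch, its 3′ part held 6, 5 and 6 clusters in replicates 1, 2 and 3 and its 5′ part 2, 3 and 2. Median read depths were 77.6, 57.9 and 35.3 in the 3′ part and 17.1, 33.8 and 15.5 in the 5′ part. Edit fraction was higher in the 5′ part, at 2.46%, 1.58% and 5.86% against 1.23%, 1.26% and 1.49%, where coverage was lower. Of the 18 edited bases of the 5′ part in replicate 3, 14 lay in 1 cluster. Relative to coverage class, the median ratios were 1.53, 0.989 and 2.78 in the 5′ part and 1.21, 1.17 and 1.18 in the 3′ part. On this scale the 5′ part was the lower one in replicate 2. The cluster with the most edited bases in this gene lay at chr20:34634775-34634924 in replicate 2, where 11 of 103 reads carried 22 edited bases among 1305 covered C bases (1.69%, Wilson 95% interval 1.12% to 2.54%). The strongest relative to its coverage lay at chr20:34636170-34636274 in replicate 3, with 14 edited bases on 2 of 23 reads, or 8.38%.

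One locus of the 61 formed by merging the members over replicates was found in all 3. It lies in LINC00657 at chr20:34634145-34634219, with 2, 5 and 3 edited bases on 2 reads each and edit fractions of 1.21%, 0.683% and 0.559% at depths of 86.8, 81.6 and 76.0. The clusters of replicates 1 and 3 touch here without sharing a base, and it is the longer cluster of replicate 2 that overlaps both. So 1 of 74 member clusters overlapped a cluster of each other replicate on the same strand, beside 11.0% of all clusters. By replicate these were 0 of 21, 1 of 34 and 0 of 19 member clusters, beside 10.6%, 9.86% and 13.1% of all clusters in replicates 1, 2 and 3. The count turns on how positions are read. Starts were taken as not belonging to the cluster, and if they did belong to it, 4 of 74 member clusters (2, 1 and 1 in replicates 1, 2 and 3) would be found in all 3, beside 12.3% of all clusters. Members rested on few edited reads, 59 of 74 on 1 to 3, as did 32383 of all 40843 clusters. Among all clusters with 1 to 3 edited reads 4.20% were found in all 3 replicates, against 1 of these 59 members.

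Recurrence in at least 2 replicates was uneven among the members. It held for 25 of 74 clusters, beside 32.1% of all clusters, and in replicates 1, 2 and 3 for 6, 9 and 10 of them, beside 31.3%, 30.3% and 35.6%. Of the 25, 15 lay in LINC00657 (of 24) and 6 in GAS5 (of 9). Among clusters with 1 to 3 edited reads it held for 12 of 19 in LINC00657, beside 22.9% of all such clusters. Only 2 of the 9 GAS5 clusters had so few edited reads, and 0 of these 2 recurred. The other GAS5 clusters were not compared with clusters of as many edited reads. In LINC00657, 6 loci were seen in 2 replicates, among them chr20:34633560-34633739 with 17 and 12 edited bases in replicates 1 and 2, and chr20:34636500-34636574 with 8 and 4 in replicates 2 and 3. The clusters of LINC00657 covered 585, 600 and 450 bases of its 4560-base stretch in replicates 1, 2 and 3, and how far this density alone makes clusters overlap was not tested. In MALAT1, 2 of 12 clusters overlapped, both at chr11:65271159-65271233 (2.94% in replicate 3 and 3.51% in replicate 2), and none of 9 in NEAT1, 7 in OIP5-AS1, 5 in TUG1 and 4 in SNHG1 did.

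**Figure D3:**
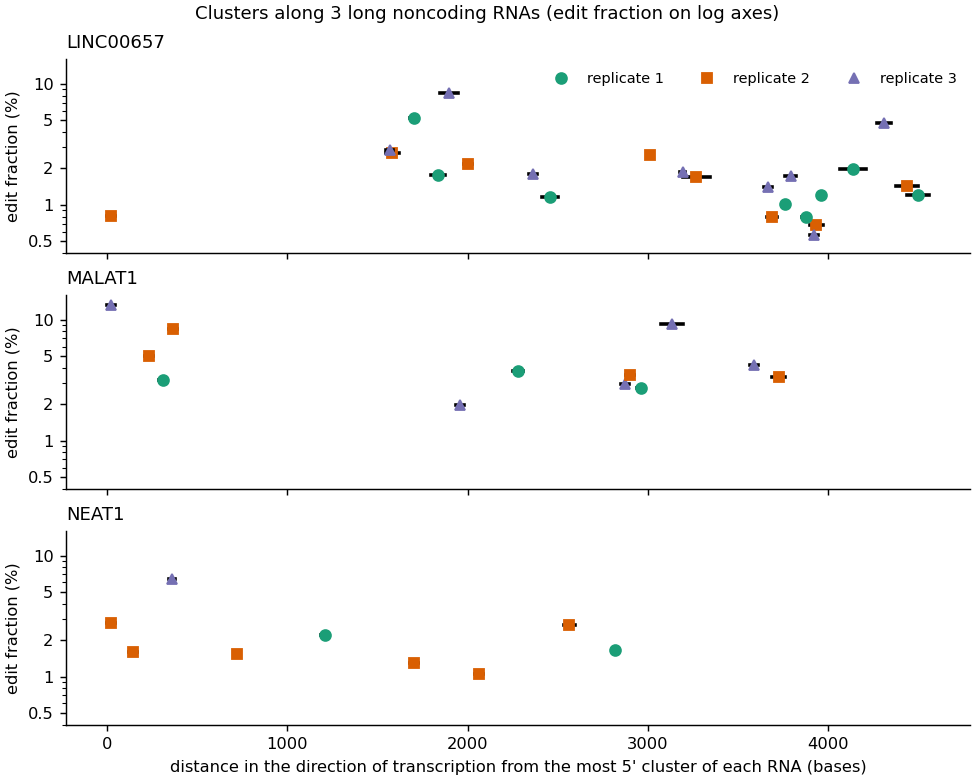
Clusters of LINC00657, MALAT1 and NEAT1 along each RNA, in bases from the most 5′ cluster in the direction of transcription, against the edit fraction in percent (log axis); symbols and colours give the replicate and black lines the extent of a cluster. LINC00657 clusters crowd toward the 3′ end, whereas the 9 NEAT1 clusters of the 3 replicates do not overlap one another.

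MALAT1 clusters covered 3765 bases on the plus strand of chromosome 11 (chr11:65268309-65272073, exonic), at mean read depths from 4.0 to 15.7. Its largest cluster by edited bases lay at chr11:65271384-65271503 in replicate 3, where 2 of 11 reads carried 10 edited bases of 108 covered C bases (9.26%, Wilson 95% interval 5.11% to 16.2%). In replicates 1 and 2 no MALAT1 cluster had more than 5 edited bases. The 9 NEAT1 clusters lay within 2835 bases (chr11:65191056-65193890, plus strand, exonic), and the one with most edited bases, at chr11:65193591-65193650 in replicate 2, had all 7 of them on 1 of 24 reads. Another NEAT1 cluster, at chr11:65193861-65193890 in replicate 1, had the highest depth of the nuclear class, 66.3, with 2 edited bases of 121. NEAT1 is made as a short polyadenylated form and a long form that share their 5′ part, and which of them these reads came from was not tested.

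The clusters of GAS5, a growth-arrest RNA whose introns carry small nucleolar RNAs, lay on the minus strand of chromosome 1 between positions 173833384 and 173835781. Exon numbers in the deposited names rose with the coordinate on both strands (in 1978 of 1981 genes on the plus and 1914 of 1914 on the minus strand), so exon 0 of a minus-strand gene is its most 3′ exon. GAS5 clusters were assigned to exons 0 and 3 and none to an intron. Its most edited locus, chr1:173833384-173833428, had 29 edited bases on 28 of 1266 reads in replicate 2 and 26 on 22 of 1004 in replicate 3 (0.413% and 0.473%), with no cluster in replicate 1. Another, chr1:173833804-173833908, had 16 edited bases in both of these replicates (0.534% and 0.568%), and the last shared locus, chr1:173834374-173834418, had 10 and 13 in replicates 1 and 3 (0.357% and 0.365%). At each of these loci the 2 replicates lay within each other's Wilson intervals.

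Read depth did not stand for coverage of C bases in every cluster. In 6 of 74 members the covered C bases per C base came to under 50% of the mean read depth, beside 4.46% of all clusters. Of these, 4 lay in GAS5 and 2 were the intronic clusters of CRNDE. The GAS5 cluster at chr1:173835752-173835781 had a mean depth of 765 but 29.6 covered C bases per C base, and that at chr1:173833504-173833593 had 653 and 35.4. The CRNDE clusters at chr16:54953242-54953286 and chr16:54954037-54954081, both in intron 1 on the minus strand, had depths of 72.5 and 71.3 but 7.67 and 8.50 covered C bases per C base. Their edit fractions of 4.35% and 3.92% rest on 1 and 2 edited bases. The counted coverage of C bases in these 4 clusters was thus far below their read depth. How the reads align, or were counted, was not tested.

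The remaining members had few edits each. SNHG1 clusters, all exonic and on the minus strand of chromosome 11, had 2 to 11 edited bases, the most at chr11:62619821-62619865 in replicate 2 (0.485%). OIP5-AS1 clusters lay in exon 14 on the plus strand of chromosome 15, with 2 to 5 edited bases, the most at chr15:41598205-41598279 in replicate 1 (2.56%). TUG1 had 2 to 7 edited bases per cluster in exon 6 on chromosome 22, the most at chr22:31373002-31373076 in replicate 1 (2.22%), and 1 cluster in intron 5. CRNDE had a single recurring locus, chr16:54952911-54952985 in its most 3′ exon, with 1.44% and 1.90% in replicates 1 and 2. In all, 3 of 74 member clusters were intronic, beside 2.10% of all clusters.

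Edited bases per edited read were taken as a rough measure of whether edits fall together on the same reads. The 2 counts are separate, and among clusters outside the list the highest was 4587 for edited reads and 4530 for edited bases. An edited read thus need not carry a counted edited base. LINC00657 had 2.42, 2.18 and 3.15 edited bases per edited read in replicates 1, 2 and 3, above the 1.59, 1.67 and 1.66 of clusters outside the list in each. GAS5 had 1.11, 1.19 and 1.28, below them in each. Neither comparison was made at like coverage, cluster length or number of C bases. Over all replicates, mean cluster length was 68.1 bases in LINC00657 and 53.1 outside the list. LINC00657 and GAS5 do not overlap, while MALAT1 (1.38, 3.00 and 2.11), SNHG1 (1.00, 2.14 and 2.33), OIP5-AS1 (1.40, 2.17 and 1.00) and NEAT1 (1.00, 2.00 and 1.00) spread across the range between replicates. More edited bases than edited reads were found in 20 of 24 LINC00657 clusters, 8 of 9 in GAS5, 7 of 12 in MALAT1 and 3 of 9 in NEAT1, beside 63.4% of all clusters. This call needs only 1 edited base more than edited reads. A GAS5 cluster with 29 edited bases on 28 edited reads met it, and numbers of edited reads were not matched. A single edited read made up 19 of 74 member clusters, beside 30.5% of all, and 17 of 74 had a single edited read with at least 2 edited bases, beside 25.6% of all clusters. The compartments did not separate on this measure. Nuclear minus cytoplasmic was -0.675, 0.684 and 0.199 edited bases per edited read in replicates 1, 2 and 3 (mean 0.0695 ± 0.689, SD, n = 3; exact sign-flip permutation p = 0.75).

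**Figure D4:**
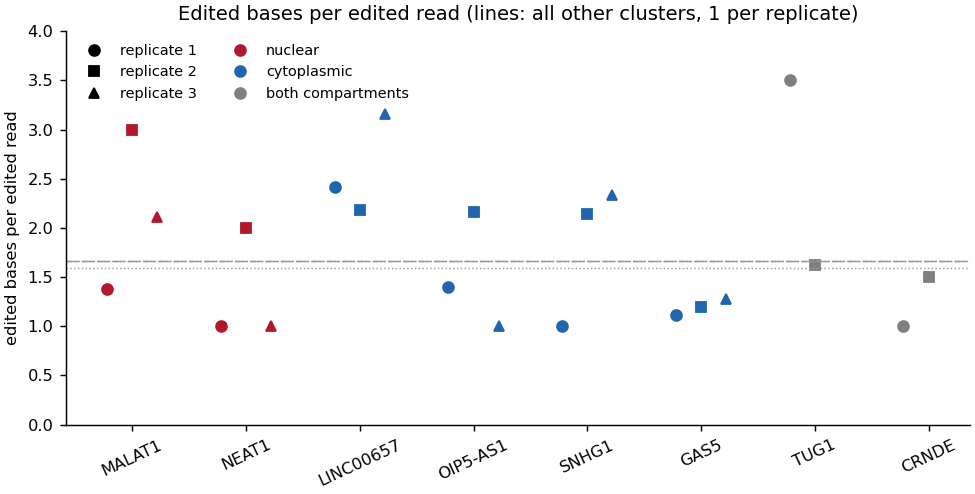
Edited bases per edited read (linear axis from 0) for each long noncoding RNA and replicate, coloured by compartment class; horizontal lines give the value over all clusters outside the list, 1 per replicate. LINC00657 lies above the lines at 2.18 to 3.15 and GAS5 below them at 1.11 to 1.28.

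Among genes outside the list with clusters in all 3 replicates, those nearest to LINC00657 in covered C bases and edit fraction were LUC7L2, its readthrough partner C7orf55-LUC7L2, which shares 29 clusters with it, and SERINC1. Likeness was the summed absolute log2 difference of both quantities over 3 replicates among 3754 genes, and came to 1.09, 1.17 and 1.36. LUC7L2 had edit fractions of 1.19%, 1.06% and 1.63%, and 2.89, 1.69 and 1.5 edited bases per edited read, of which only the first lies above the lowest value of LINC00657. SERINC1 had edit fractions of 1.68%, 1.74% and 2.02%, and 2.41, 2.36 and 2.33 edited bases per edited read. The nearest to GAS5 were TXN (2.08), EIF4H (2.28) and a clone-named gene (2.59) whose 11 clusters are also those of NONO. TXN had edit fractions of 0.372%, 0.370% and 0.366%. Its 1.14, 1.31 and 1.30 edited bases per edited read were, like those of GAS5, below clusters outside the list in each replicate. EIF4H had 1.71, 1.33 and 1.79, and the clone-named gene 1.15, 1.29 and 1.69.

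The protein partners of these RNAs and other hosts of small nucleolar RNAs carried clusters as well. Of 9 paraspeckle and speckle proteins, each had a cluster and 6 had clusters in every replicate, beside 37.9% of all genes with a cluster. Their pooled edit fractions were 0.572%, 0.760% and 0.812% in replicates 1, 2 and 3. SFPQ, a core paraspeckle protein, held 10, 11 and 7 clusters, and RBM14 held 1 in replicate 2. Among proteins known to bind LINC00657, the RNA-binding proteins KHDRBS1 and RBMX had clusters in every replicate. KHDRBS1 held 8, 6 and 4 clusters with edit fractions of 0.766%, 0.830% and 1.11% in replicates 1, 2 and 3, and RBMX held 5, 2 and 6 with 0.692%, 0.557% and 0.718%. Each of 10 other snoRNA hosts had a cluster and 9 had clusters in every replicate, beside the same 37.9%. Together these hosts gave 0.945%, 0.941% and 1.01%. SNHG6 was steady, with 3 clusters in each replicate and 1.81%, 2.10% and 1.97%. Beside 11.0% of all clusters, 28 of the 63 clusters of these 10 hosts were found in all 3 replicates. None of the 13 clusters of GAS5 and SNHG1 was. The difference between these groups of hosts was not tested. Numbers of edited reads were not matched in these shares. Of all clusters with 1 to 3 edited reads, 4.20% were found in all 3 replicates.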

How the data were processed

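RNA of 3 replicates was sequenced, and the submitters' processing notes name STAR and hg19. C-to-U positions came from SAILOR. With FLARE the authors then tested windows of 30 bases against background rates set by read depth, kept those passing 0.1 after Benjamini-Hochberg adjustment, joined neighbours closer than 15 bases, and deposited 1 table per replicate. In it, the authors' counts (C bases, covered C bases and edited bases, and all and edited reads) are unscaled. The authors' edit fraction equalled the ratio of these counts in 40843 of 40843 clusters (tolerance 1e-09). The deposited mean read depth is an unscaled coverage signal, and the deposited score is a cumulative probability. Positions were read as BED intervals and are printed 1-based. The reads in clusters, 1637592, 1731304 and 1104249 in replicates 1, 2 and 3, are not the library depth.

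Python 3.11.15, NumPy 2.4.6, pandas 2.3.3 and matplotlib 3.10.9 were used. Values were summed over clusters per gene and replicate. A cluster recurred where another replicate's cluster on its strand shared 1 base or more. Coverage classes were divided at 10, 20, 30, 40, 50, 100, 200 and 500 covered C bases per C base. Differences within replicates had exact two-sided sign-flip tests, whose smallest p is 0.25. All 10 genes and, of their clusters, loci found in all 3 replicates (at most 4 per gene, otherwise the one with most edited bases) were to be named; other named clusters and the coverage comparisons were chosen after their values were seen. Members and lists (paraspeckle and speckle proteins, LINC00657 partners, snoRNA hosts, cell type markers) were chosen with earlier results of these data known. Some list members are not reported here. The code was tested on simulated data. Alternatives were a minimum score, depth or number of edited reads, exons only, other summaries and overlaps, and leaving out replicates or genes. Cluster sequences were not analysed here.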

Additional observations from a re-analysis of the deposited data

How the results depend on the processing

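Of 64 alternative values of 7 results, 27 were differences with a test, of which 20 kept their direction and 7 reversed. As no p could pass 0.05 here, the threshold says nothing about their stability. Of the 37 others, 27 stayed within 1 SD of the replicates (a count within 1.5 times) and 10 moved further. A minimum mean read depth of 50 lowered the number of member clusters per replicate from 24.7 to 7.33. It lowered their pooled edit fraction from 0.967% to 0.618%. The share found in all 3 replicates, as a mean over replicates, rose from 0.980% to 3.70%. The 1 such cluster did not meet a score of 0.99 or an overlap of 50%. This minimum depth left nuclear clusters in replicate 1 only, so no mean contrast could be given. Pooling as the median of single clusters gave an edit fraction of 1.84%, and leaving out GAS5 gave 1.72% and lowered the members' share of all edited bases from 0.149% to 0.104%. The nuclear minus cytoplasmic difference in edit fraction reversed from 2.54 to -0.243 percentage points at a coverage under 20, which rests on single clusters of replicate 3 (-0.734 without the most edited nuclear cluster, -0.124 also without the most edited cytoplasmic one, but 0.367 without the latter alone), and kept its direction in the other alternatives. Relative to coverage class it went from 0.334 to 0.0990 without MALAT1. With starts 1 base earlier, the share of member clusters found in all 3 replicates was 5.91% as a mean over replicates (4 of 74 clusters). The difference in edited bases per edited read, 0.0695, which was not past any threshold, reversed without MALAT1 (-0.419), without GAS5 (-0.516) and with the median of clusters (-0.417). The alternatives that leave out GAS5, shift the starts or set a coverage under 20, and every one for the relative edit fraction and the edits per read were chosen after the values were seen. Where no construction shows it, the cause was not tested.

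With each replicate left out, the clusters per replicate ran from 20 to 27.5, the edit fraction from 0.855% to 1.03%, the nuclear minus cytoplasmic difference from 1.68 (without replicate 3) to 3.01 percentage points and, relative to coverage class, from 0.265 to 0.403, the difference in edited bases per edited read from -0.238 (without replicate 2) to 0.442, the share of edited bases from 0.134% to 0.172%, and the share found in both remaining replicates, which asks for fewer overlaps, from 11.6% to 28.7%. No paired analysis between groups was possible because the labels give 1 group; compartments were compared within replicates. Depth limits these results: most members, like most clusters of the series, rest on 1 to 3 edited reads. With 3 replicates no p can fall below 0.25.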
